A study of Mus musculus with 20 samples.

Results

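Transcripts of the ribonucleotide reductase subunits Rrm1 and Rrm2 and of the S-phase regulators Gmnn and Fbxo5 were followed through a heat shock in mouse fibroblasts lacking or carrying heat shock factor 1 (HSF1). These genes were taken by name, each with every probe that the platform annotation assigned to a single gene, which gave 12 probes of the 21701 single-gene probes on the array. They are 4 of the 10625 genes tested. They were chosen with earlier results on these 20 arrays known, so their levels are given as a description. The fit over all genes includes them, and whether they passed its threshold is given beside the share of all genes that did, with no p of their own.

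The cells were HSF1 -/- fibroblasts (KO) and HSF1 +/+ fibroblasts (WT). KO cells were measured on 3 arrays at 0 h, on 3 arrays in an early window (0.5, 1 and 2 h of heat shock) and on 4 arrays in a late window (3, 4, 6 and 8 h), and WT cells were measured on the same number of arrays at the same times. Every array was a two-colour hybridisation of Cy5-labelled sample against a shared Cy3-labelled pool, made from 1 h heated plus unheated fibroblasts. Only 0 h was repeated, so the spread within the early and the late window includes change over time. How many lines or clones stood behind each genotype, the origin of the fibroblasts, the temperature and any recovery time are not given in the sources used here. Genotype cannot be told apart from other differences between the KO and WT cells.

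Ribonucleotide reductase converts ribonucleotides into the deoxyribonucleotides that DNA replication and repair consume. Rrm1 is its large subunit, which carries the catalytic and regulatory sites, and Rrm2 is the small subunit, which holds the radical needed for catalysis and is made mainly in S phase. Gmnn encodes geminin, which binds the licensing factor Cdt1 and keeps origins from being loaded again after they have fired. Fbxo5 encodes Emi1, an inhibitor of the anaphase-promoting complex (APC/C), the ubiquitin ligase that marks geminin and mitotic cyclins for destruction. HSF1 activates transcription of chaperone genes in heated cells.

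Proximal promoters of Rrm1, Rrm2 and Fbxo5 are shown because these members took different courses after heat. The sequences come from RefSeq (GRCm38.p6), cover the 150 bases before the annotated start and run 5′ to 3′ on the strand of the gene. Rrm1 lies at chr7:102441545-102441694 (plus strand), Rrm2 at chr12:24708104-24708253 (plus strand) and Fbxo5 at chr10:5805466-5805615 (minus strand). A promoter entry was found for 3 of the 4 genes. Capitals mark a CCAAT box (CCAAT), an E2F core (TTCCCGC as well as TTCGCGC, and likewise TTGCCGC as well as TTGGCGC) or a YY1 core (AANATGGCG), each searched on both strands.
Rrm1: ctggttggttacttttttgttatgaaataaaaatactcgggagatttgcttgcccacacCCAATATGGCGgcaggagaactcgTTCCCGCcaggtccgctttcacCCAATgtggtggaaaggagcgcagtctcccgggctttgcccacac
Rrm2: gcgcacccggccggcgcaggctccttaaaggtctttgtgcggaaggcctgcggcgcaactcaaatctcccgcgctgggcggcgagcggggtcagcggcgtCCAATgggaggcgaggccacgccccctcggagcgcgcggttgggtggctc
Fbxo5: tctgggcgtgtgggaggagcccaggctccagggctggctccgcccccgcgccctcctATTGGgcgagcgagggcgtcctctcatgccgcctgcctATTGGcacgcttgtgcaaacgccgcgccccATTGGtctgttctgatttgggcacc

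In the 250 bases before the start, Rrm1 held 2 CCAAT boxes, 1 E2F core and 1 YY1 core, and the upstream CCAAT box overlaps the YY1 core. Rrm2 held 1 CCAAT box and 1 E2F core, which lies outside the stretch shown. Fbxo5 held 3 CCAAT boxes, all written as ATTGG on its own strand. Of 32851 mouse promoters of that length, 33.8% held a CCAAT box, 7.89% an E2F core and 1.12% a YY1 core. A cell-cycle homology region (TTTGAA), present in 15.99% of promoters, and a heat shock element (3 alternating GAA and TTC units with any 2 bases between units), present in 0.466%, were searched the same way and had 0 matches in the 3 promoters. The motifs were chosen after the sequences had been seen, and a match is a description of letters only.

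The arrays held 39037 to 42220 values each, and any pair of arrays had an r of 0.423 to 0.805 over the probes. Values are logarithms of sample over pool, taken as log2 and centred on the median of each array. The base is not stated. Ratios of 16-bit signals cannot pass 4.82 in log10 units, and values reached 10.2 in size. Natural logarithms would make every fold given here too small. A value above 0 means more transcript than in the pool relative to the median probe, so levels of different genes or probes cannot be ranked against each other. Hsf1 had 0 single-gene probes, and the genotype labels were checked on its target Hspa1a, an inducible chaperone of the HSP70 family. Over the heated times Hspa1a differed by -4.86 ± 0.53 (SE, KO minus WT, limma adjusted p = 9.62e-06). The late change of Hspa1a was -0.01 ± 0.75 in KO cells (adjusted p = 0.999) and 5.83 ± 0.75 in WT cells (adjusted p = 0.00184).

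Of the fibroblast markers, 9 of 12 were measured, and at 0 h Pdgfra (1.36 ± 0.20, adjusted p = 0.000434) and Col3a1 were higher and Fn1 was lower in KO than in WT cells. The mean of the 9 fibroblast markers was 0.16 to 0.25 in KO and 0.06 to 0.14 in WT arrays at 0 h. In the late window it was -0.19 to 0.01 in KO and -0.37 to -0.01 in WT arrays. Against 0 h, Col1a2 fell late in KO cells (-0.59 ± 0.17, adjusted p = 0.0293) and Pdgfra fell late in WT cells (-0.63 ± 0.19, adjusted p = 0.0483). The mean of 7 macrophage markers was -0.20 to -0.07 in KO arrays and 0.11 to 0.38 in WT arrays at 0 h, and 2 of the 7 (Fcgr1 and Cd68) were lower in KO cells. Lyz2 rose late in KO cells (0.66 ± 0.20, adjusted p = 0.0451), and Fcgr1 fell in WT cells both early (-1.59 ± 0.26, adjusted p = 0.0383) and late (-1.41 ± 0.24, adjusted p = 0.0038). The macrophage mean was -0.29 to -0.16 in KO and 0.02 to 0.26 in WT arrays in the late window. Over the heated times 2 of the 9 fibroblast markers passed the threshold as higher in KO cells and 2 as lower. These were 22.2% each, against 4.19% and 6.07% of all genes. At those times 2 macrophage markers (Itgam and Cd68) and 1 of 4 endothelial markers (Eng) were lower in KO cells. Of the others, 0 of 7 epithelial and 0 of 5 muscle markers passed the threshold. Because the pool is itself fibroblast RNA, these ratios show differences between arrays and not which cell types were present. The part of these markers in the results on Rrm1, Rrm2, Gmnn and Fbxo5 was not tested.

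**Figure D1:**
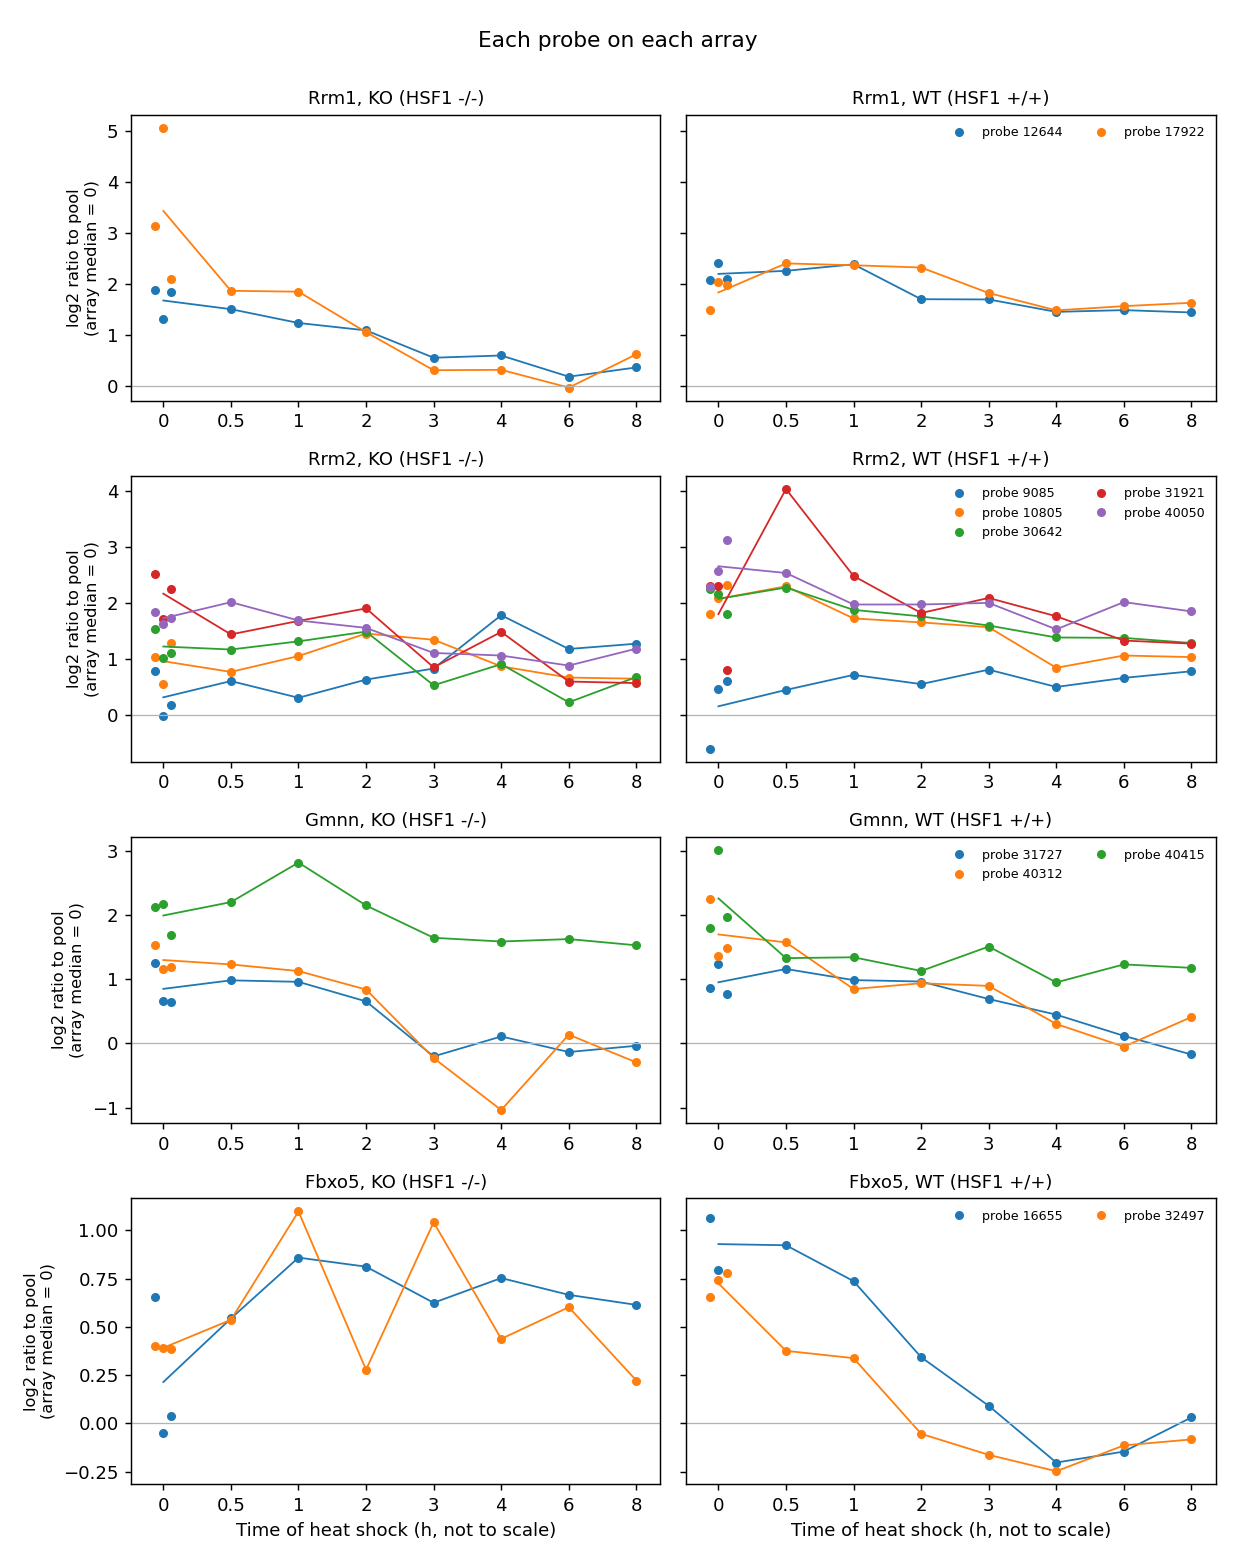
Median-centred log2 ratio to the pool (vertical axis) of each of the 12 probes against hours of heat shock (horizontal axis). KO and WT stand in separate columns of panels, colours mark the probes of a gene, and each array is 1 point. Both Rrm1 probes lie lower in KO at 7 of 7 heated times, and both Fbxo5 probes lie higher in KO at 3, 4, 6 and 8 h.

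Rrm1 transcript fell late in KO cells, and at every heated time it was lower in KO than in WT cells. On probe 12644 the KO values were 1.88, 1.31 and 1.86 at 0 h, then 1.51, 1.24 and 1.10 at 0.5, 1 and 2 h, and 0.56, 0.61, 0.19 and 0.37 at 3, 4, 6 and 8 h. On the same probe the WT values were 2.09, 2.42 and 2.11 at 0 h, then 2.27, 2.39 and 1.71 at 0.5, 1 and 2 h, and 1.70, 1.46, 1.50 and 1.45 at 3, 4, 6 and 8 h. All 7 heated KO arrays lay below the WT array of the same time, and the KO late arrays lay below every other array of this probe.

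The second Rrm1 probe, 17922, spread widely in unheated KO cells. Its KO values were 3.14, 5.07 and 2.11 at 0 h, 1.87, 1.86 and 1.06 in the early window and 0.32, 0.33, -0.02 and 0.63 in the late window. Its WT values were 1.49, 2.05 and 1.99 at 0 h, 2.41, 2.38 and 2.33 in the early window and 1.83, 1.49, 1.57 and 1.64 in the late window. Here the unheated KO arrays were the highest of the series on average, whereas on probe 12644 they lay below all unheated WT arrays, so the direction of the 0 h difference in Rrm1 depends on the probe. The probes correlated with r = 0.57 over the 20 arrays, which share the pool.

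With both probes averaged after setting each to a mean of 0, Rrm1 stood at 0.88, 1.56 and 0.35 in KO cells at 0 h and at -1.19, -1.17, -1.55 and -1.13 in KO cells at 3, 4, 6 and 8 h. The late change was -2.19 ± 0.23 (SE, 4 late against 3 arrays at 0 h) in KO cells, a 4.56-fold fall, and -0.44 ± 0.23 in WT cells. Without probe 17922, an alternative chosen after seeing the data, the late change was -1.25 in KO and -0.68 in WT cells. On the mean of both probes, the late arrays of each genotype lay below its whole 0 h range. In WT cells the margin was narrow, with a highest late value of 0.14 and a lowest 0 h value of 0.16. On probe 17922 alone the WT late arrays lay within the 0 h range, with a late change of -0.21 ± 0.44 (SE). Fewer cells in S phase and less Rrm1 RNA per cell cannot be told apart in RNA from whole cultures, and the same holds for each gene below.

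Rrm1 left its 0 h range earlier in KO than in WT cells, by a margin that depends on the probe. In KO cells the gene value lay below the 0 h range from 0.5 h onwards, with changes from the 0 h mean of -0.87, -1.01 and -1.48 at 0.5, 1 and 2 h. In WT cells the changes were 0.31, 0.36 and 0.00 at those times, and the value lay below the 0 h range from 3 h onwards. The timing in KO cells rests on probe 17922 in part, since without it the early change was -0.40 in place of -1.12 ± 0.25. On probe 12644 KO values lay below their 0 h range from 1 h and WT values from 2 h. On probe 17922 KO values lay below theirs from 0.5 h and WT values at no heated time. Ordered by mean gene value, KO at 0 h (0.93 ± 0.61 SD, n = 3), WT early (0.62 ± 0.20, n = 3) and WT at 0 h (0.39 ± 0.22, n = 3) overlapped. WT late (-0.05 ± 0.13, n = 4) and KO early (-0.19 ± 0.32, n = 3) overlapped next, and KO late (-1.26 ± 0.19, n = 4) lay below all other arrays.

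Rrm2 was lower in KO than in WT cells both before and after heat on most of its probes, and its late change was close in both genotypes (0.07 ± 0.27 apart, SE). On probe 40050 the KO values were 1.83, 1.62 and 1.73 at 0 h, 2.02, 1.69 and 1.56 in the early window and 1.11, 1.06, 0.88 and 1.18 in the late window. The WT values of that probe were 2.29, 2.57 and 3.12 at 0 h, 2.54, 1.97 and 1.97 in the early window and 2.00, 1.53, 2.02 and 1.85 in the late window. KO lay below WT at 7 of 7 heated times on this probe and on probe 30642, and at 6 of 7 on probes 10805 and 31921.

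Probe 30642 gave 1.54, 1.02 and 1.11 in KO cells at 0 h, 1.17, 1.31 and 1.49 in the early window and 0.53, 0.90, 0.22 and 0.68 in the late window. In WT cells it gave 2.26, 2.17 and 1.80 at 0 h, 2.28, 1.88 and 1.76 in the early window and 1.60, 1.38, 1.38 and 1.28 in the late window. The unheated groups did not overlap on probes 30642, 40050 and 10805. Probe 10805 averaged 0.96 ± 0.37 in KO and 2.08 ± 0.26 in WT cells at 0 h (SD, n = 3 each) and 0.88 ± 0.32 in KO and 1.12 ± 0.31 in WT cells late (SD, n = 4 each). On this probe the late change was thus -0.08 ± 0.25 in KO and -0.95 ± 0.25 in WT cells (SE). Probe 31921 went the other way, with late changes of -1.29 ± 0.45 in KO and -0.19 ± 0.45 in WT cells, and it held a WT value of 4.04 at 0.5 h and of 0.80 on 1 unheated WT array.

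Probe 9085 of Rrm2 ran against the other probes of the gene. Its late change was 0.95 ± 0.27 in KO and 0.53 ± 0.27 in WT cells, and it correlated with the other 4 at r of -0.53 to -0.32, while those 4 correlated with each other at r of 0.44 to 0.84. Its KO values were 0.78, -0.02 and 0.17 at 0 h and 0.83, 1.78, 1.18 and 1.27 at 3, 4, 6 and 8 h, against WT values of -0.61, 0.47 and 0.60 at 0 h and 0.81, 0.50, 0.66 and 0.78 late. Each Rrm2 probe lists a different clone sequence, and whether probe 9085 measures Rrm2 was not tested.

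As the mean of 5 probes, Rrm2 stood at 0.16, -0.40 and -0.07 in KO and at 0.23, 0.54 and 0.35 in WT cells at 0 h, and these ranges did not overlap. Late, it stood at -0.45, -0.16, -0.67 and -0.51 in KO cells and at 0.23, -0.18, -0.09 and -0.14 in WT cells at 3, 4, 6 and 8 h. The difference KO minus WT was -0.48 ± 0.20 at 0 h and -0.49 ± 0.13 over the heated times. The late change was -0.35 ± 0.19 in KO and -0.42 ± 0.19 in WT cells, and -0.67 and -0.65 without probe 9085 (chosen after seeing the data). In order of mean gene value the groups ran WT early, WT at 0 h, WT late, KO at 0 h, KO early and KO late, with every neighbouring pair overlapping.

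Gmnn fell late in both genotypes by about the same amount. On the mean of its probes it left its 0 h range at different times, a difference that came from 1 probe. The gene value, the mean of 3 probes, was 0.59, 0.29 and 0.13 in KO cells at 0 h, 0.43, 0.59 and 0.17 at 0.5, 1 and 2 h, and -0.64, -0.82, -0.50 and -0.65 at 3, 4, 6 and 8 h. In WT cells it was 0.59, 0.82 and 0.37 at 0 h, 0.31, 0.02 and -0.03 at 0.5, 1 and 2 h, and -0.01, -0.48, -0.61 and -0.57 at 3, 4, 6 and 8 h. Every heated WT array lay below the WT 0 h range, whereas the KO value lay below the KO 0 h range from 3 h onwards. On probe 31727 both genotypes lay below their own 0 h range from 3 h, and on probe 40312 both from 1 h. Only probe 40415 separated them, with WT below its range from 0.5 h and KO from 3 h.

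The late change of Gmnn was -0.99 ± 0.18 in KO cells, a 1.99-fold fall, and -1.01 ± 0.18 in WT cells, a 2.02-fold fall. Their difference was 0.02 ± 0.25, and KO minus WT over the heated times was -0.01 ± 0.12. The early change was 0.06 ± 0.19 in KO and -0.50 ± 0.19 in WT cells. In order of mean value the groups ran WT at 0 h, KO early, KO at 0 h, WT early, WT late and KO late, with every neighbouring pair overlapping.

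The near-zero genotype difference of Gmnn is a mean over probes that disagreed. Probe 40415 was higher in KO than in WT cells at 7 of 7 heated times, with 2.20, 2.82, 2.15, 1.65, 1.59, 1.63 and 1.53 in KO cells at 0.5, 1, 2, 3, 4, 6 and 8 h against 1.33, 1.34, 1.13, 1.51, 0.95, 1.23 and 1.18 in WT cells. Probe 40312 was lower in KO cells at 5 of 7 times, with KO values of -0.23, -1.04, 0.14 and -0.30 and WT values of 0.90, 0.30, -0.05 and 0.41 at 3, 4, 6 and 8 h. These 2 probes list the same clone sequence and correlated at r = 0.40. Probe 31727, from another clone, was lower in KO cells at 6 of 7 times and correlated with probe 40312 at r = 0.80. On all 3 probes the late mean lay below the 0 h mean in both genotypes. The early change in WT cells differed between the probes, at 0.08 ± 0.23 on probe 31727, -0.58 ± 0.31 on probe 40312 and -0.99 ± 0.27 on probe 40415.

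**Figure D2:**
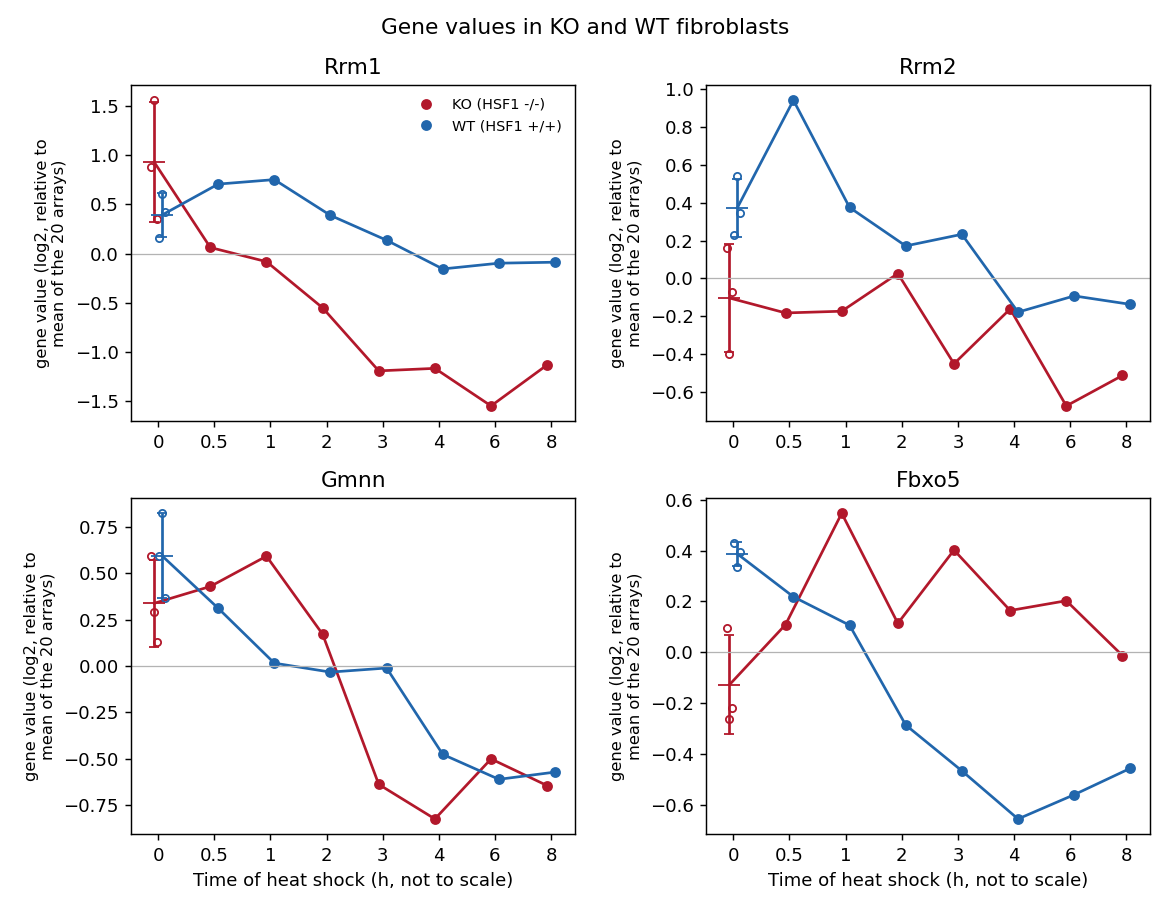
Gene value (vertical axis, mean of the probes of a gene, each relative to its own mean, log2) of Rrm1, Rrm2, Gmnn and Fbxo5 against hours of heat shock (horizontal axis), KO in red and WT in blue, 1 point per array. Fbxo5 separates the genotypes late, with KO at -0.01 to 0.40 and WT at -0.66 to -0.46, and Rrm1 separates them in the opposite direction.

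Fbxo5 fell late in WT cells, while in KO cells most heated values lay above those at 0 h. On probe 32497 the KO values were 0.40, 0.39 and 0.38 at 0 h, 0.54, 1.10 and 0.28 at 0.5, 1 and 2 h and 1.04, 0.44, 0.60 and 0.22 at 3, 4, 6 and 8 h. The WT values of that probe were 0.66, 0.74 and 0.78 at 0 h, 0.38, 0.34 and -0.05 at 0.5, 1 and 2 h and -0.16, -0.25, -0.11 and -0.08 at 3, 4, 6 and 8 h. All KO arrays were below all WT arrays at 0 h, and all KO arrays were above all WT arrays in the late window.

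The second Fbxo5 probe, 16655, showed the same crossing. Its KO values were 0.65, -0.05 and 0.04 at 0 h, 0.54, 0.86 and 0.81 in the early window and 0.62, 0.75, 0.67 and 0.61 in the late window. Its WT values were 1.06 and 0.79 on 2 unheated arrays, with no value on the third, 0.92, 0.74 and 0.34 in the early window and 0.09, -0.20, -0.15 and 0.03 in the late window. The late change was 0.45 ± 0.19 in KO and -0.99 ± 0.22 in WT cells on this probe, and 0.18 ± 0.20 in KO and -0.88 ± 0.20 in WT cells on probe 32497. The probes correlated at r = 0.68 over the 19 arrays with both.

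As the mean of both probes, Fbxo5 stood at 0.10, -0.26 and -0.22 in KO and at 0.43, 0.34 and 0.40 in WT cells at 0 h, the last WT value resting on 1 probe. KO minus WT was -0.52 ± 0.17 at 0 h and 0.52 ± 0.11 over the heated times. Time by time it was -0.11, 0.44, 0.40, 0.87, 0.82, 0.76 and 0.44 at 0.5, 1, 2, 3, 4, 6 and 8 h. The late change was 0.32 ± 0.16 in KO and -0.92 ± 0.16 in WT cells, a 1.90-fold fall in WT, and the changes differed by 1.24 ± 0.22. In order of mean value, WT at 0 h, KO early, KO late, WT early and KO at 0 h overlapped pair by pair, and WT late (-0.54 ± 0.09 SD, n = 4) lay below all other groups. The KO value lay above its 0 h range at every heated time but 8 h.

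**Figure D3:**
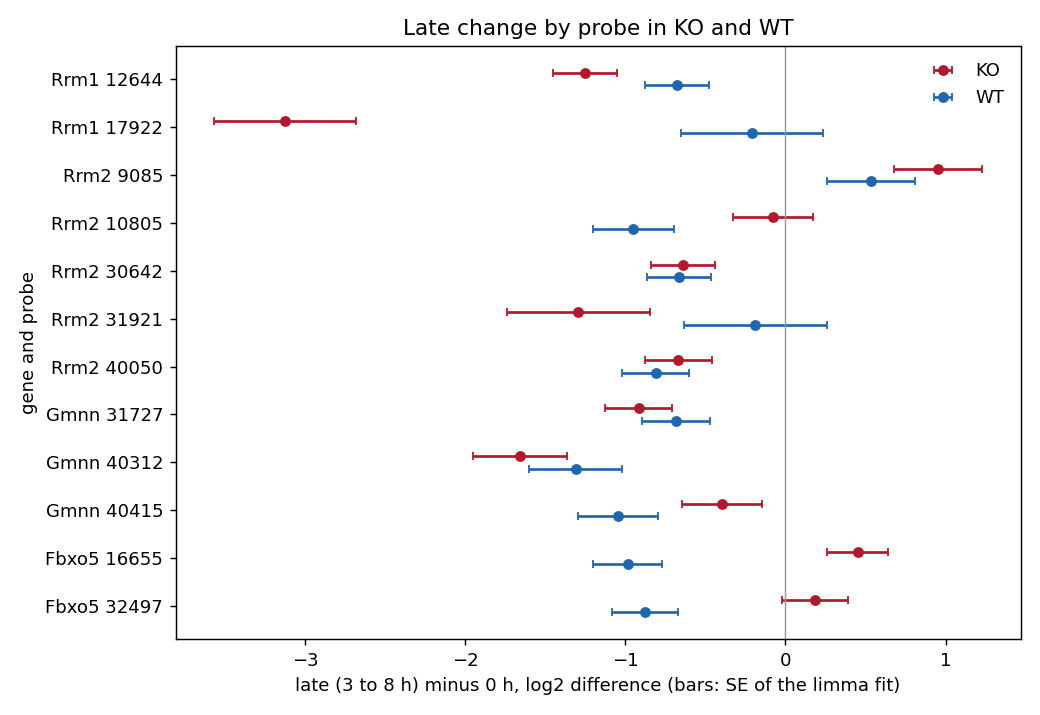
Late minus 0 h difference (log2, with SE) for each of the 12 probes, KO in red and WT in blue. The Fbxo5 probes lie above 0 in KO (0.45 and 0.18) and below 0 in WT (-0.99 and -0.88), the Gmnn probes lie below 0 in both, and Rrm2 probe 9085 lies above 0 in both.

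The limma model, fitted to all 10625 genes with a threshold of 0.05 on the adjusted p, gives the share of all genes against which the members stand. These counts are descriptive, since the members were chosen from these values. At 0 h, 0 of the 4 members passed, against 6.64% of all genes. At an unadjusted p under 0.05 there were 3 members, beside 2213 of the 10625 genes. Over the heated times Rrm1 and Rrm2 were past the threshold as lower in KO, against 6.07% of genes in that direction, and Fbxo5 as higher, against 4.19%. In the early window 0 of 4 passed in KO cells, against 0% of genes, and 0 of 4 in WT cells, against 0.0376%. At an unadjusted p under 0.05 there were 2 members in each genotype, beside 793 of the 10625 genes in KO and 1202 in WT cells. In the late window Rrm1 and Gmnn were past it as lower in KO cells, against 6.8% of genes, and Gmnn and Fbxo5 as lower in WT cells, against 3.67%. Which members passed late depends on the setting. Gmnn in WT cells did not pass with 1 probe per gene or with only the contrasted groups in the fit. Rrm1 in WT cells passed as lower without probe 17922, Rrm2 in KO cells passed as lower without probe 9085, and Fbxo5 in KO cells passed as higher under quantile normalization and with array widths scaled. With 1 probe per gene Rrm1 in WT cells passed as lower, and Rrm2 in KO cells as higher (0.95, on probe 9085 alone).

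The late response itself differed between the genotypes for Rrm1, lower in KO (-1.75 ± 0.32, against 0.0753% of genes), and for Fbxo5, higher in KO (1.24 ± 0.22, against 0.0188%). They are among the 10 genes of 10625 past the threshold in that comparison. Rrm1 kept its place past the threshold under 7 of 29 alternative settings and Fbxo5 under 7 of 28. With single arrays left out, Rrm1 kept it without KO at 2 h, WT at 2 h, WT at 0.5 h or unheated KO array 3, and its difference ran from -2.04 to -1.43. Fbxo5 kept it without KO at 2 h, WT at 2 h or WT at 0.5 h, and its difference ran from 1.05 to 1.35. The 0.5 h and 2 h arrays are not among the late and 0 h arrays that this comparison sets against each other. Fbxo5 lost its place whichever late or 0 h array was left out. Rrm1 also lost its place in each of these cases, except without unheated KO array 3. Without probe 17922 the Rrm1 difference was -0.57. Rrm2 lost its place in the heated comparison under 6 of 29 settings, namely 1 probe per gene, the replicate block, and leaving out the KO array at 3, 6 or 8 h or the WT array at 0.5 h. With any single array left out its heated difference ran from -0.55 to -0.37. Late changes share the 0 h arrays of their genotype with the 0 h comparison, so these comparisons are not independent.

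Across the 20 arrays, which share the pool and fall into 2 genotypes, Rrm1 went with Gmnn (r = 0.69) and with Rrm2 (r = 0.59), and Rrm2 with Gmnn (r = 0.56). Fbxo5 correlated with Rrm1 at r = -0.14, with Rrm2 at r = 0.16 and with Gmnn at r = 0.44. Within the 10 KO arrays Fbxo5 correlated with Rrm1 at r = -0.51, with Rrm2 at r = -0.06 and with Gmnn at r = -0.08. Within the 10 WT arrays the same correlations were 0.72, 0.73 and 0.90. Rrm1 and Rrm2 correlated at r = 0.48 in KO and 0.88 in WT arrays, and Rrm1 and Gmnn at r = 0.79 in KO and 0.68 in WT arrays. These are descriptions over a time course and carry no test.

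Among 9455 genes with a value on every array, the patterns closest to Rrm1 by Pearson r were Eif4g2 (0.868), Pgd (0.854), Slamf1 (0.853), Nt5dc2 (0.853) and Polr2b (0.852). Closest to Rrm2 were Eif6 (0.929), Psmc3 (0.924), Psmb4 (0.916), Mdh2 (0.914) and Psmb5 (0.913). Gmnn was closest to Msrb3 (0.957), Cks2 (0.940), Mapre1 (0.930), Calm2 (0.927) and Znrd2 (0.925). The patterns nearest to Fbxo5 were less close, with Tnrc6a at 0.808, Cpne8 at 0.787, Cbarp at 0.745, Exoc1 at 0.744 and Lpar1 at 0.741. By Spearman correlation 2 of the 5 names were shared for Rrm1 and for Rrm2, and 3 of 5 for Gmnn and for Fbxo5. After quantile normalization 2 of 5 were shared for Rrm1, Rrm2 and Fbxo5, and 3 of 5 for Gmnn. Psmc3, Psmb4 and Psmb5 were then no longer among the 5 closest to Rrm2, of which Eif6 was highest at r = 0.834.

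The other genes around these members were counted in 6 lists that leave the members out: dNTP supply, origin licensing and firing, the replication fork, the APC/C with its regulators, the E2F, Rb and G1/S cyclin group, and mitosis. Of their 194 genes, 169 were tested. In late KO cells 33 fell and 3 rose, or 19.5% falling against 6.8% of all genes and 1.78% rising against 3.86%, with a median of -0.33 against -0.02 over all genes. In late WT cells 18 fell and 3 rose, or 10.7% falling against 3.67% of all genes and 1.78% rising against 3.6%, with a median of -0.25 against -0.02. The difference of the late responses had 0 of 169 past the threshold by limma, so the larger count in KO cells is not shown to differ from that in WT. At an unadjusted p under 0.05 there were 19 of the 169 in that difference, beside 926 of all 10625 genes. Of the 36 in KO, 18 were counted without unheated KO array 1, 23 without KO at 6 h and 24 without unheated KO array 3. Of the 21 in WT, 12 were counted without WT at 6 h, 14 without WT at 8 h, 12 under quantile normalization, 8 with array widths scaled and 3 when the fit held only the WT late and 0 h arrays.

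**Figure D4:**
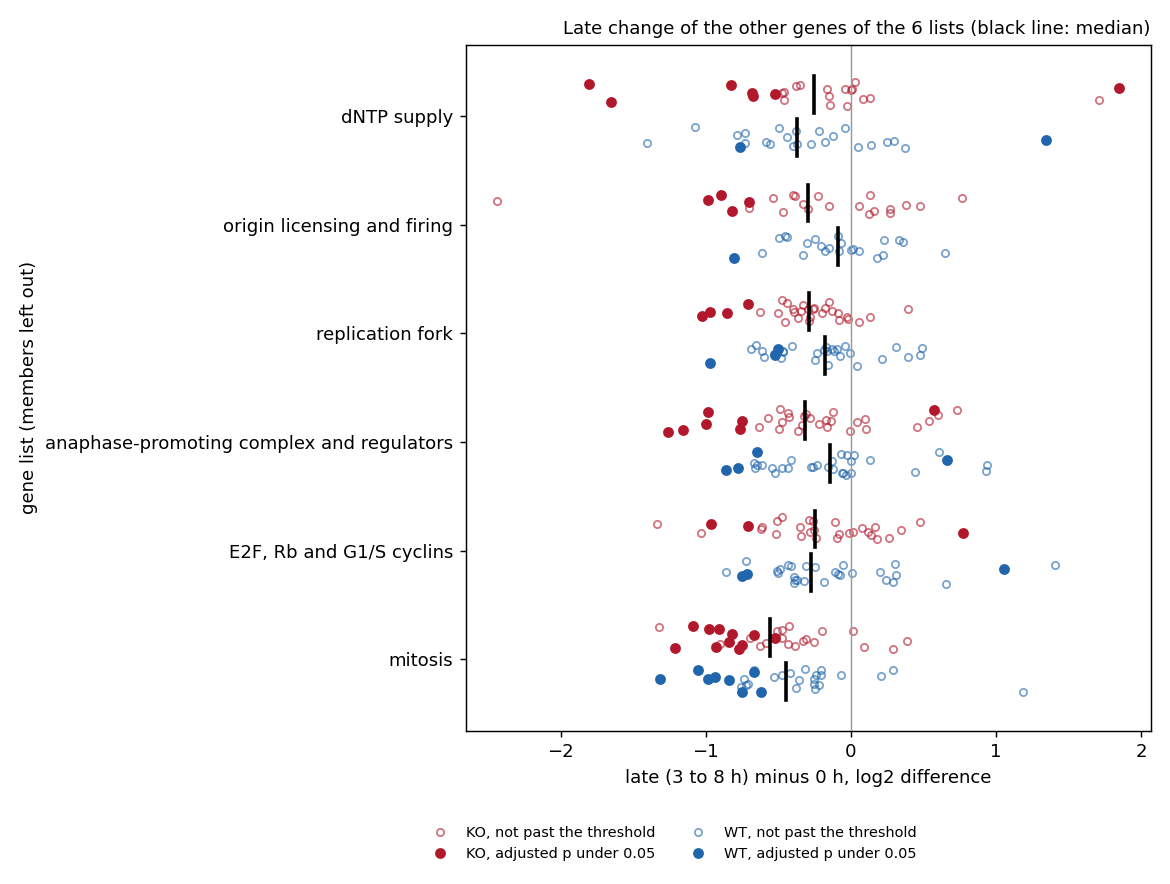
Late minus 0 h difference (log2, horizontal axis) of the other genes of each of the 6 lists, KO in red above WT in blue, filled where the limma adjusted p was under 0.05, with the median as a black line. The median of the mitosis list is the lowest in both genotypes, at -0.56 in KO and -0.45 in WT.

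In dNTP supply, 6 of 24 genes fell and 1 rose in late KO cells, or 25% and 4.17%, against 6.8% and 3.86% of all genes. The fallers included Glrx, a glutaredoxin that can reduce ribonucleotide reductase (-1.80 ± 0.24, adjusted p = 0.000498), Tk1, the S-phase thymidine kinase (-1.65 ± 0.28, adjusted p = 0.00151), and Dck, the deoxycytidine kinase (-0.68 ± 0.14, adjusted p = 0.00436). In late WT cells 1 gene fell, or 4.17% of the list against 3.67% of all genes. It was Gmps of guanine nucleotide synthesis (-0.77 ± 0.16, adjusted p = 0.0109), which was also among the fallers in KO cells. Adsl of purine synthesis rose in both, by 1.85 ± 0.30 in KO and 1.35 ± 0.30 in WT cells. In WT cells too 1 gene of the list rose, or 4.17% against 3.6% of all genes. Rrm2b, the alternative small subunit induced by p53 and named after its values were seen, changed by -0.15 ± 0.17 in KO and 0.14 ± 0.17 in WT cells and did not pass.

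The dNTP supply list also held genes past the threshold as lower in KO than in WT cells before heat. Rrm2, on the mean of its probes, differed in that direction (-0.48 ± 0.20) without passing. At 0 h 4 of 24 were lower (3.6% of all genes) and 1 higher (3.04% of all genes) in KO cells. The higher one was Glrx (0.95 ± 0.26, limma adjusted p = 0.0325), so its late fall in KO cells was measured from a higher 0 h level. Over the heated times 6 were lower (6.07% of all genes) and 0 higher (4.19% of all genes). Over all 6 lists 8 genes were lower and 3 higher at 0 h (4.73% and 1.78%), against 3.6% and 3.04% of all genes. This count of 11 became 6 without unheated KO array 2, 6 with the replicate block and 0 when the fit held only the 0 h arrays. Heated, 20 were lower and 1 higher over all 6 lists (11.8% and 0.592%), against 6.07% and 4.19% of all genes. That count of 21 became 13 with the replicate block. Txn1, the thioredoxin that reduces ribonucleotide reductase, differed by -1.22 ± 0.19 at 0 h (adjusted p = 0.000919) and by -1.03 ± 0.13 heated (adjusted p = 4.18e-05). Samhd1, which degrades dNTPs, differed by -0.89 ± 0.16 at 0 h and -0.73 ± 0.10 heated. Nme2, a nucleoside diphosphate kinase, differed by -0.94 ± 0.20 at 0 h and -0.70 ± 0.13 heated. Samhd1 acts against the supply that the list is named for.

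Around Gmnn, 4 of 23 genes of origin licensing and firing fell in late KO cells and 1 in late WT cells, and 0 rose in either. The falling shares were 17.4% in KO and 4.35% in WT cells, against 6.8% and 3.67% of all genes. Orc5, a subunit of the origin recognition complex, fell in both, by 0.82 ± 0.18 on the log2 scale in KO and by 0.80 ± 0.18 in WT cells. The other 3 in KO cells were Ddb1 (-0.99 ± 0.23), part of the ligase that destroys Cdt1, the origin-firing kinase Cdc7 (-0.70 ± 0.16) and Topbp1, which helps to load firing factors (-0.89 ± 0.23). Cdt1, the protein that geminin binds, changed by 0.48 ± 0.23 in KO and 0.33 ± 0.23 in WT cells without passing, and was named after its values were seen. At the replication fork 4 of 30 genes fell in late KO cells (Rpa3, Fen1, Pola2 and Tipin, -1.03 to -0.71). In late WT cells 3 fell (Tipin, Timeless and Pole2, -0.97 to -0.50). These were 13.3% and 10% of the list, against 6.8% and 3.67% of all genes, and 0 rose in either.

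Around Fbxo5, 6 of 32 genes of the APC/C list fell and 1 rose in late KO cells, and 3 fell and 1 rose in late WT cells. In KO cells these were 18.8% falling and 3.1% rising, against 6.8% and 3.86% of all genes. In WT cells they were 9.4% and 3.1%, against 3.67% and 3.6% of all genes. Pttg1, the securin that the APC/C destroys, fell by 1.00 ± 0.16 in KO and by 0.65 ± 0.16 in WT cells on the log2 scale. Mad2l1, a checkpoint inhibitor of the APC/C, fell by 1.26 ± 0.23 in KO and by 0.86 ± 0.23 in WT cells. Skp1, a core subunit of SCF ligases (-1.16 ± 0.21), and the APC/C subunit Anapc7 (-0.99 ± 0.25) fell in KO cells. The subunit Anapc5 fell in both, by 0.76 ± 0.22 in KO and by 0.78 ± 0.22 in WT cells on the log2 scale. The gene that rose was the same in both, Espl1, the protease separase that securin restrains (0.57 ± 0.17 in KO and 0.66 ± 0.17 in WT cells). Fzr1, the APC/C activator that Emi1 inhibits, was named after its values were seen and changed by -0.43 ± 0.15 in KO and -0.26 ± 0.15 in WT cells, without passing. The median of the list was -0.32 in KO and -0.14 in WT cells, against -0.02 over all genes in each.

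In the E2F, Rb and G1/S group, 2 of 30 fell and 1 rose in late KO cells, and 2 fell and 1 rose in late WT cells. In KO cells these shares, 6.67% falling and 3.33% rising, were near those of all genes, 6.8% and 3.86%. In WT cells they were 6.67% and 3.33%, against 3.67% and 3.6% of all genes. Rb1, the repressor of E2F, rose by 0.77 ± 0.20 in KO and 1.06 ± 0.20 in WT cells, and Cks1b, a cyclin-dependent kinase subunit, fell by 0.97 ± 0.16 in KO and 0.75 ± 0.16 in WT cells. At 0 h Ccnd2, encoding cyclin D2 (adjusted p = 0.000243), and Cks1b were lower in KO cells and the kinase inhibitors Cdkn1b and Cdkn1c were higher. In mitosis, 11 of 30 fell in late KO and 8 in late WT cells, and 0 rose in either. The falling shares were 36.7% and 26.7%, against 6.8% and 3.67% of all genes. Cks2 (-1.21 ± 0.19 in KO and -1.05 ± 0.19 in WT) and the mitotic kinase Cdk1 (-0.93 ± 0.19 in KO and -0.84 ± 0.19 in WT) fell in both. In the early window 0 of 169 genes of the 6 lists passed in KO cells and 0 in WT cells by limma. At an unadjusted p under 0.05 there were 15 in KO and 22 in WT, beside 793 and 1202 of all 10625 genes.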

How the data were processed

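The authors deposited 1 log ratio of Cy5 over Cy3 per probe and array, taken here as log2 since no base is stated. Background correction, spot filters and normalization are not given in the sources used here, and 3.28% of the values of 42624 probes on 20 arrays were missing. The number of arrays limits how precise each value is. The platform table assigned 21701 probes to 1 gene, and RefSeq held the gene IDs of 21650.

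Arrays were centred on their medians. Probes with fewer than 2 values in any of the 6 groups were dropped, leaving 20881 single-gene probes and 10625 genes. A gene is the mean of its probes, each relative to its own mean. Linear models were fitted by gene with limma 3.58.1 (R 4.3.3) to the 20 arrays together, with moderated errors (3.36 prior degrees of freedom), two-sided p-values, Benjamini-Hochberg adjustment over all genes and a threshold of 0.05. The error of a difference is its SE from that fit, or from the same fit by probe. The procedure was tested on simulated data.

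Members, lists and tests were chosen with earlier results of these data known. From each list, genes past the threshold were named, up to 4 of smallest p per comparison, and for likeness the 5 closest genes. It is not stated that the repeated 0 h arrays are separate cultures, and p-values may reflect technical spread only. Same-numbered arrays did not deviate together (r of -0.02 to 0.05), so no block was used. Alternatives were other centring and scaling, probe filters, 1 probe per gene, fewer groups in the fit, each array left out and, added after seeing the data, the removal of 1 probe of Rrm1, Rrm2 or Gmnn.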

Additional observations from a re-analysis of the deposited data

Results flagged for a closer look

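In the late KO window the lowest Rrm1 gene value, -1.55 at 6 h, stood apart from the other 3 arrays (-1.19, -1.17 and -1.13) by more than Dixon's 95% limit for 4 values. Of 32 groups of 4 arrays examined in this way over probes and genes, chance alone marks about 1 in 20. Fbxo5 lay above its own 0 h mean on every heated KO array and below it on every heated WT array. The mean early changes differed by 0.76 and the mean late changes by 1.24 (KO minus WT). The early difference was not tested. The late difference lay past the threshold of the fit over all genes, and it is a description, since Fbxo5 was chosen with these values known.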

How the results depend on the processing

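Over all alternatives, 744 member values moved by less than the spread, 44 moved by more, and of the values past the threshold 1 changed sign: with 1 probe per gene, KO minus WT of Rrm2 heated was 0.31, because the probe used is then 9085, the one that ran against the other 4. The count of 744 is no measure of stability, because many of these values could hardly move. Leaving out an array outside a comparison barely alters its difference, and fitting only the contrasted groups alters the error. Values not past the threshold that changed sign with 1 probe per gene were Rrm2 at 0 h (0.16), in KO late (0.95), in WT late (0.53) and in KO early (0.20), Rrm1 at 0 h (-0.52) and in WT early (-0.08), and Gmnn in WT early (0.08) and in the late response difference (-0.23). Other settings also changed the sign of values not past the threshold, among them Gmnn at 0 h (0.04 under quantile normalization). Of all genes, 705 passed at 0 h, 109 with only the contrasted groups in the fit and 448 with the replicate block, which also left 0 of 10 genes in the late response difference and gave 6 genes of the 6 lists in place of 11 at 0 h and 13 in place of 21 heated. The 4 genes of WT early became 1 without centring, 2 under quantile normalization, 0 with array widths scaled, 2 with values on all 20 arrays, 8 with at least 1 value per group, 2 with 1 probe per gene and 0 with only the contrasted groups. The 772 of WT late became 462, 371 and 164 under quantile normalization, width scaling and only the contrasted groups. The 0 of KO early became 1 with at least 1 value per group (793 at an unadjusted p under 0.05). The 10 of the late response difference became 0 without centring and 1 with 1 probe per gene. Leaving out single arrays gave 423 to 770 genes at 0 h, 833 to 1154 heated, 0 to 18 in WT early, 385 to 887 in WT late, 0 to 6 in KO early, 523 to 1284 in KO late and 0 to 18 in the late response difference. The lowest counts came without unheated KO array 3 (423) at 0 h, WT at 8 h (385) in WT late and unheated KO array 1 (523) in KO late.

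The share of higher calls at 0 h was 45.8%, and 58.8% without centring, 61.8% under quantile normalization and 56.7% with width scaling. In WT late it was 49.5%, and 60.2% without centring and 60.4% with width scaling, and in KO late 36.2%, and 47.5% without centring. Without centring the median of all genes shifted to 0.16 at 0 h, 0.19 in WT early and -0.12 in KO early. Late list medians stayed below 0 under all settings run except origin licensing in WT, which was 0.02 with width scaling. Causes were not tested. Spot signal over background was not used here.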
